A study of Mus musculus with 6 samples.

Results

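The 10 genes described here encode proteins of the lipid droplet in mouse liver: the perilipins Plin2, Plin3, Plin4 and Plin5, the CIDE proteins Cideb and Cidec, the droplet-bound dehydrogenases Hsd17b11 and Hsd17b13, the triglyceride lipase Pnpla2 and its inhibitor G0s2. They were taken from a deposited gene count table by symbol, each from 1 row, and are 10 of 41096 annotated rows and 10 of 12468 genes tested. All 10 passed the filter on low counts. Polyadenylated RNA was sequenced from mouse livers in 6 libraries. Of these, 3 were from livers without exposure (control replicates 1 to 3) and 3 from livers exposed to DEHP (DEHP replicates 1 to 3). DEHP, di(2-ethylhexyl) phthalate, is a plasticizer. The labels state no strain, genotype, sex, age, dose, route or duration. The count columns of the exposed libraries are headed High, with no amount stated. The labels also do not say whether each library came from its own animal. The p-values therefore measure the spread between these samples. How much of it is spread between animals was not tested.

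Hepatocytes store triglyceride in droplets, a core of neutral lipid under a phospholipid layer that is coated with proteins. Perilipins cover this surface and limit the access of lipases, CIDE proteins bring droplets together so that lipid moves into larger ones, and the lipase ATGL, encoded by Pnpla2, starts the release of fatty acids. Many droplet genes are targets of PPARalpha, a fatty acid receptor that phthalate metabolites can activate in rodents. In exposed livers Hsd17b11 had the largest difference of the 10 genes, 2.53 times the control mean and without overlap between groups, but it missed the threshold over all genes. The other 9 overlapped between groups.

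Counts over annotated rows ranged from 10042875 to 13841280 per library, and the 10 genes took 0.108% to 0.173% of them. The hepatocyte markers Alb, Apoa1, Ttr, Tat, Cps1 and Hnf4a were all present, and their summed level ranged from 104759 to 147165 CPM (counts in 1000000) in controls and from 89200 to 120948 in exposed livers. The libraries did not stand evenly within the control group. The summed level of 15 interferon-stimulated genes was 3874 and 2986 CPM in control replicates 1 and 2, 347 in control replicate 3 and 304 to 375 in exposed livers. The summed level of 10 macrophage markers was 816, 771 and 252 CPM in the controls, in order of replicate, and 266 to 387 in exposed livers. In whole liver, fewer cells of a type and less RNA per cell cannot be told apart. Of 7 adipocyte markers, Fabp4, which macrophages and endothelium also express, had 67 to 194 counts in the 6 libraries. DEHP replicate 3 held 25 counts of Adipoq, which encodes adiponectin, where the other 5 libraries held 0. That library also held 202 counts of Cfd, which encodes adipsin, against at most 17 elsewhere. Lep, which encodes leptin, was at 0 in all 6 libraries.

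Hsd17b11 and Hsd17b13 encode related short-chain dehydrogenases that sit on the droplet surface. They lie near each other: in the coordinates of the table, which carries C57BL/6NJ gene identifiers, Hsd17b13 spans chromosome 5 from 109925756 to 109950577 and Hsd17b11 from 109963629 to 110002187, both on the minus strand and both protein-coding. The gap between them is 13051 bases and holds 1 annotated row without a symbol. The sequence before the start of each gene is shown because these 2 genes had different values in exposed livers. Plin2 and Plin5 are shown beside them because, with Hsd17b13, they are the 3 of the 10 genes whose window holds the nuclear receptor half-site AGGTCA on either strand. Each stretch runs 5′ to 3′ on the gene's strand, comes from the RefSeq promoter windows on GRCm38.p6, and leaves out bases that the GENCODE M21 annotation of that genome places in an exon. Capitals mark AGGTCA or its reverse complement TGACCT.
Hsd17b11, chr5:104021920-104022046, minus strand: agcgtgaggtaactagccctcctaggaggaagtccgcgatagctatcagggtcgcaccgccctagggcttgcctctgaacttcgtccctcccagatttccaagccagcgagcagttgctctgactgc
Hsd17b13, chr5:103977411-103977638, minus strand: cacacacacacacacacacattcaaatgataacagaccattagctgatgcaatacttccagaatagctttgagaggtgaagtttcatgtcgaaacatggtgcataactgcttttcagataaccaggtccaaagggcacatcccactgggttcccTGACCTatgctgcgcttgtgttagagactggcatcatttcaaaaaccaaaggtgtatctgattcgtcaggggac
Plin2, chr4:86670061-86670309, minus strand: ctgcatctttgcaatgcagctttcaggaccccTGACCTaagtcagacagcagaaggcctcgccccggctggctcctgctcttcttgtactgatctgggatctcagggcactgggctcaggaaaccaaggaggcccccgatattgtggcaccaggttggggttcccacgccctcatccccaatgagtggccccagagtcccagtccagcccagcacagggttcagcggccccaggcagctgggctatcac
Plin5, chr17:56117597-56117798, minus strand: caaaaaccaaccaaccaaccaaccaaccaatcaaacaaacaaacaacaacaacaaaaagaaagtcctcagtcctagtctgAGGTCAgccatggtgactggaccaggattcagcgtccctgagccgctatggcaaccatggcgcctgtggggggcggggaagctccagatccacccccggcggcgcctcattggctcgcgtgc
The 300-base windows, 250 bases before to 50 after a gene's start, were matched for all 10 genes (12 windows). AGGTCA was found in 4 of these 12 windows and in 16.3% of the 32851 windows of the table. The pair of half-sites in a row with 1 base between (DR1), which PPARalpha and other receptors bind, was searched on both strands with up to 2 mismatches in its 12 fixed letters and can overlap a single AGGTCA, as it does in Plin2. It was found in the Plin2 window alone among the 10 genes, and in 3.86% of all windows. The window of Hsd17b11, the gene with the largest difference, held neither motif. A match describes letters in a window, and no binding was measured in these livers.

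Hsd17b11 stood at 106, 121 and 192 CPM in control replicates 1 to 3 and at 307, 413 and 341 CPM in DEHP replicates 1 to 3. Every exposed library lay above every control, and control replicate 3 lay closest to the exposed livers. The means were 139 ± 45.8 CPM in controls and 354 ± 54.1 CPM in exposed livers (SD, n = 3). The log2 fold change was 1.34 ± 0.24 (SE, edgeR quasi-likelihood test, adjusted p = 0.0676), with a 95% interval of 0.83 to 1.85, or 1.78-fold to 3.61-fold. Its unadjusted p, 5.96e-05 by the same edgeR fit, was 11th in order of size among the 12468 genes. The call rested on the test and on single libraries: DESeq2 gave an adjusted p of 4.89e-05 and limma-voom 0.0498, and the adjusted edgeR p was 3.51e-04 without control replicate 3, 0.0483 without DEHP replicate 1 and 0.344 without control replicate 1. Hsd17b11 is known as a gene induced by PPARalpha activators in mouse tissues. The part of PPARalpha in its difference here was not tested.

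Hsd17b13, whose protein is concentrated on hepatocyte droplets, was at 383, 436 and 564 CPM in controls and 480, 601 and 491 CPM in exposed livers. The groups overlapped, with control replicate 3 above 2 of the 3 exposed libraries. Exposed over control, this was a log2 fold change of 0.18 ± 0.21 (SE, edgeR, adjusted p = 0.744), and its 95% interval of -0.26 to 0.62 lay below that of Hsd17b11. Within each library, Hsd17b13 exceeded Hsd17b11 per kilobase of gene length by 5.46, 5.44 and 4.44 times in the controls and by 2.36, 2.19 and 2.17 times in the exposed livers. The ratio was lower in 3 of 3 exposed libraries than in any control, and scaling between libraries does not enter it. On the log2 scale it was 2.35 ± 0.17 and 1.16 ± 0.06 (SD, n = 3). The difference of -1.18 had a two-sided exact permutation p of 0.1, the smallest that 3 against 3 allows, and 0.375 adjusted over the 5 ratios compared.

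**Figure D1:**
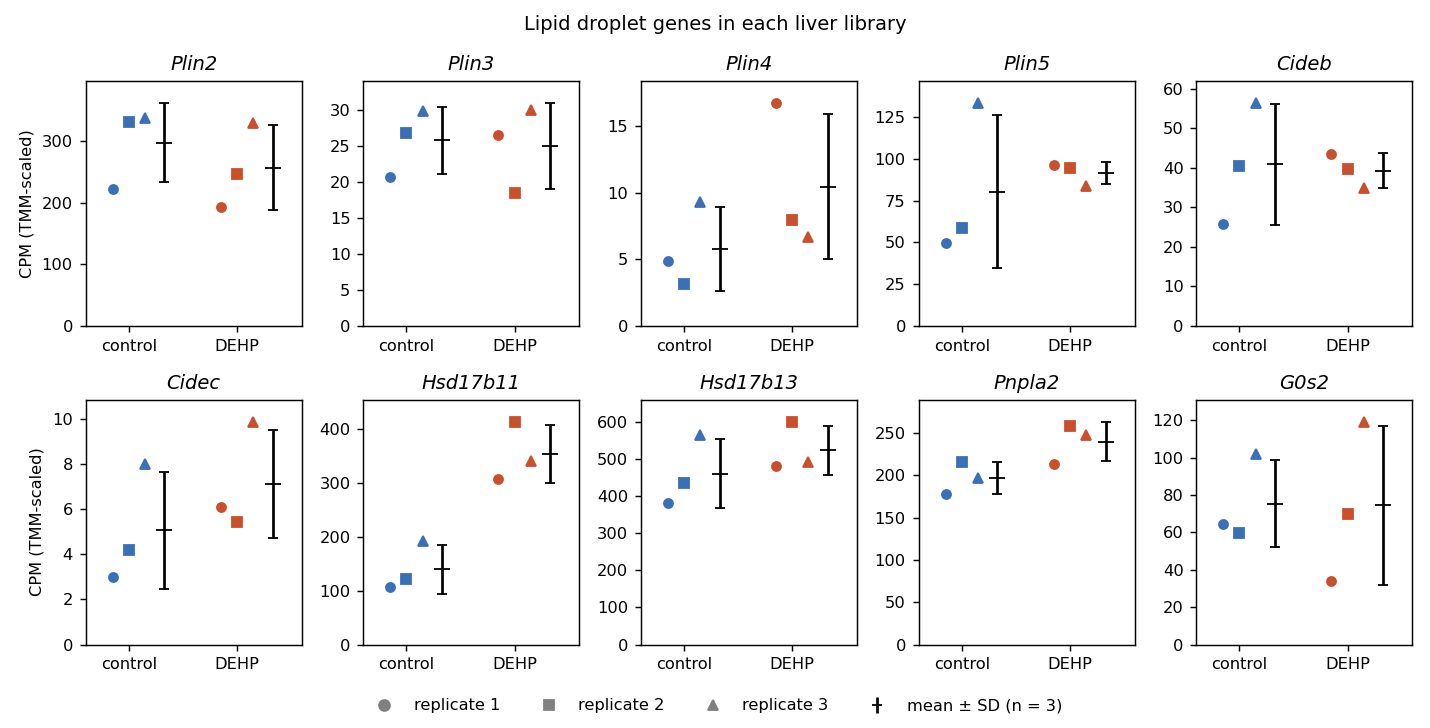
CPM of the 10 droplet genes in each library (y axes from 0, TMM-scaled, a separate scale per gene; symbols mark replicates 1 to 3, and the bars give mean ± SD, n = 3). Hsd17b11 has 3 exposed libraries at 307 to 413 CPM, above the 3 controls at 106 to 192, while the groups overlap for the other 9 genes.

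Of the 10 genes, 0 passed an adjusted p of 0.05 in edgeR, where 9 of 12468 genes, 0.0722%, did. At an unadjusted p of 0.05 there was 1 of 10, Hsd17b11, against 13.1% of all genes (6.11% higher and 6.97% lower). It was also the 1 of 10 whose groups did not overlap, against 17.7% of all genes, or 9.17% with the exposed livers higher. Hsd17b11 alone among the 10 was called by DESeq2, limma-voom and edgeR with no low-count filter, which called 2.18%, 0.0561% and 2.41% of all genes. With 1 library left out, it passed without control replicate 3 (3.10% of all genes) and without DEHP replicate 1 (0.147%). The other libraries left out gave 0 of 10: control replicate 1 (0.0391% of all genes), control replicate 2 (0.0467%), DEHP replicate 2 (0.0463%) and DEHP replicate 3 (0.0387%), as did a replicate block (0.0481%). Fold changes were positive for 6 of the 10 and negative for 4, with a median of 0.19 on the log2 scale beside -0.03 over all genes tested. Leaving out control replicate 1 gave a median of 0.0021, and leaving out control replicate 3 gave 0.34.

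Plin2, the main perilipin of the hepatocyte and a protein that is stabilised by droplet lipid, had 223, 332 and 338 CPM in controls and 193, 247 and 330 CPM in exposed livers. DEHP replicate 1 was the lowest of the 6 libraries, and the groups overlapped. The log2 fold change was -0.21 ± 0.24 (SE, edgeR, adjusted p = 0.744), with a 95% interval of -0.71 to 0.29. A rise above 1.22-fold therefore lay outside the interval, while a fall to 0.609 of the control level did not.

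Plin5, which couples droplets to mitochondria in tissues that oxidise fat, had 49.5, 58.3 and 133 CPM in controls and 96.0, 94.7 and 83.7 CPM in exposed livers. Control replicate 3 was the highest library of all, and control replicates 1 and 2 were below every exposed library. The exposed libraries spanned 1.15-fold and the controls 2.69-fold. The log2 fold change was 0.19 ± 0.33 (SE, edgeR, adjusted p = 0.852). It was 0.78 without control replicate 3 (edgeR, adjusted p = 0.0639) and -0.06 without control replicate 1, so its size and sign rested on single control libraries.

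Plin4 lies next to Plin5 on chromosome 17, from 60032403 to 60039984 in the table's coordinates, 2012 bases from Plin5 and on the same strand. It is a perilipin of fat and muscle, and was scarce here: the controls held 69, 40 and 105 reads and the exposed livers 165, 91 and 79. These were 4.89, 3.16 and 9.30 CPM against 16.7, 7.94 and 6.71 CPM, with control replicate 3 above 2 of the 3 exposed libraries. The log2 fold change of 0.85 ± 0.44 (SE, edgeR, adjusted p = 0.436) was 0.37 without DEHP replicate 1, the library with the highest value, and 1.39 without control replicate 3 (edgeR, adjusted p = 0.113). Plin3, a perilipin found in most cells that moves between cytosol and droplets, had 20.8, 26.8 and 29.9 CPM in controls and 26.5, 18.5 and 30.1 CPM in exposed livers. DEHP replicate 2 was the lowest of the 6 libraries and DEHP replicate 3 the highest, so that the exposed group enclosed the controls. Its log2 fold change was -0.04 ± 0.23 (SE, edgeR, adjusted p = 0.958), with a 95% interval of -0.55 to 0.46.

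Plin2 made up 64.7%, 69.6% and 54.5% of perilipin transcripts in the controls, as a share of the summed counts per kilobase of Plin2 to Plin5, and 46.7%, 55.7% and 62.7% in exposed livers. Plin5 made up 24.1%, 20.6% and 36.2% and then 39.0%, 35.8% and 26.7%. The Plin2 share was thus lower and the Plin5 share higher in control replicate 3 and in DEHP replicates 1 and 2 than in the other 3 libraries. The group means differed by -7.91 percentage points for Plin2 and 6.90 for Plin5 (two-sided exact permutation p = 0.3 for each, 0.4 adjusted over 4 shares, where 0.1 is the smallest possible unadjusted p). Plin3 held 6.81% to 10.5% and Plin4 0.628% to 3.82% over the 6 libraries. The summed level was 137 ± 39.0 CPM per kilobase in controls and 131 ± 16.6 in exposed livers (SD, n = 3, two-sided exact permutation p = 0.9).

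**Figure D2:**
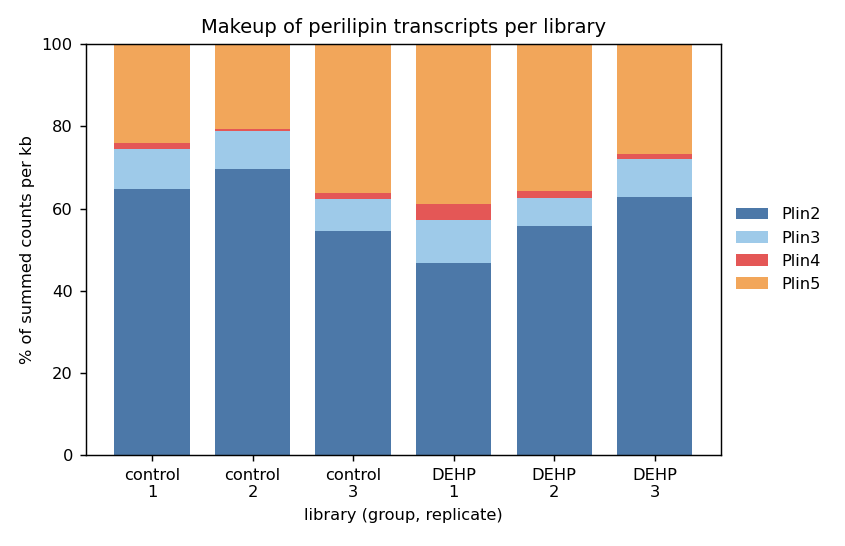
Share of Plin2, Plin3, Plin4 and Plin5 in their summed counts per kilobase (y axis, percent, from 0 to 100) in each library (x axis). The Plin2 share is between 46.7% and 55.7% in DEHP replicates 1 and 2 and control replicate 3, and between 62.7% and 69.6% in the other 3 libraries.

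Cideb, the CIDE protein of the liver, which takes part in loading lipid onto lipoproteins, had 25.8, 40.5 and 56.3 CPM in controls and 43.4, 39.6 and 34.7 CPM in exposed livers. All 3 exposed libraries lay within the range of the controls. Exposure differed from control by a log2 fold change of -0.06 ± 0.25 (SE, edgeR, adjusted p = 0.949), with a 95% interval of -0.60 to 0.48. Cidec, which fuses droplets in fat cells and appears in fatty liver, was scarce, with 42 to 116 counts per library. It had 2.98, 4.19 and 7.97 CPM in controls and 6.08, 5.41 and 9.85 CPM in exposed livers, so that control replicate 3 was above 2 exposed libraries. Its log2 fold change was 0.50 ± 0.41 (SE, edgeR, adjusted p = 0.644). Its highest value was in DEHP replicate 3, the library with Adipoq and Cfd counts. Summed over 7 adipocyte markers that library had 37.4 CPM, against 9.33 and 10.6 in the other exposed livers and 6.64 to 14.4 in controls. Without it the Cidec log2 fold change was 0.19 (edgeR, adjusted p = 0.927), while it was 1.01 without control replicate 3 (adjusted p = 0.243) and 0.23 without control replicate 1. The part of adipocyte RNA in the value was not tested. Plin1 and Cidea, the perilipin and CIDE protein of fat cells, were below the filter. Plin1 had 0 counts in all controls and in DEHP replicate 2, with 7 and 10 in DEHP replicates 1 and 3, and Cidea had 1 count in control replicate 3, 5 in DEHP replicate 3 and 0 elsewhere.

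Pnpla2 had 178, 216 and 196 CPM in controls and 213, 258 and 247 CPM in exposed livers. Only control replicate 2 and DEHP replicate 1 overlapped between groups, and each group spanned 1.21-fold, the narrowest control range of the 10 genes. The means were 197 ± 18.7 and 240 ± 23.4 CPM (SD, n = 3). This gave a log2 fold change of 0.28 ± 0.19 (SE, edgeR, adjusted p = 0.546), with a 95% interval of -0.11 to 0.68. It stayed between 0.22 and 0.38 whichever library was left out.

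G0s2, a small protein that binds the lipase and blocks it, had 64.6, 59.7 and 102 CPM in controls and 34.0, 70.1 and 119 CPM in exposed livers. DEHP replicate 1 was the lowest and DEHP replicate 3 the highest of the 6 libraries, a 3.51-fold range within the exposed group. The log2 fold change was -0.02 ± 0.43 (SE, edgeR, adjusted p = 0.993). Its 95% interval of -1.02 to 0.99 allows a difference of nearly 2-fold in either direction. The ratio of G0s2 to Pnpla2 per kilobase was 1.26, 0.961 and 1.80 in controls and 0.554, 0.941 and 1.67 in exposed livers. The log2 ratio had a mean of 0.37 ± 0.46 in controls and -0.07 ± 0.80 in exposed livers (SD, n = 3, two-sided exact permutation p = 0.4, also 0.4 adjusted over the 5 ratios), so the groups could not be separated.

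**Figure D3:**
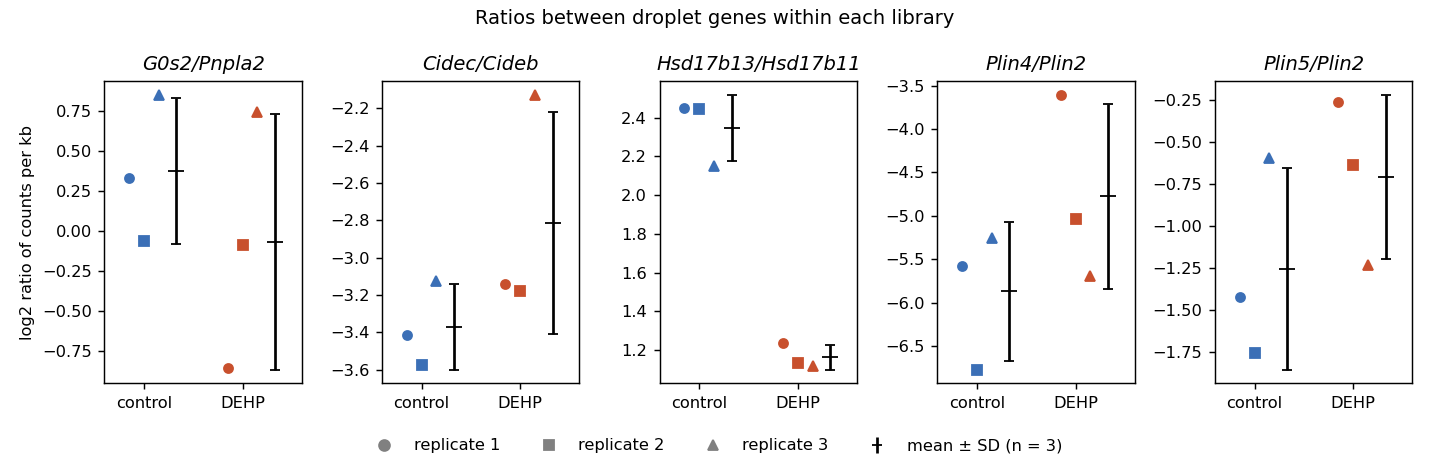
Log2 ratios of counts per kilobase between pairs of droplet genes within each library (y axes, log2, a separate scale per pair; symbols mark replicates 1 to 3, and the bars give mean ± SD, n = 3). Hsd17b13/Hsd17b11 is 2.15 to 2.45 in controls and 1.12 to 1.24 in exposed livers, and the groups overlap for the other 4 ratios.

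The other 3 ratios compared paralogs. The log2 ratio of Plin4 to Plin2 differed between group means by 1.09, that of Plin5 to Plin2 by 0.55 and that of Cidec to Cideb by 0.56, each higher in exposed livers. Each had a two-sided exact permutation p of 0.3 and 0.375 after adjustment over 5 ratios, and the groups overlapped in each.

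Per kilobase of gene length, the order of mean levels in controls ran from Hsd17b13 at 214 ± 43.2 CPM per kilobase through G0s2 at 86.6 ± 26.6, Plin2 at 84.7 ± 18.3 and Pnpla2 at 65.1 ± 6.21 (SD, n = 3). Hsd17b11 followed at 42.9 ± 14.1, then Plin5 at a mean of 38.5 (23.7 to 63.8 in the 3 controls), Cideb at 27.4 ± 10.2 and Plin3 at 12.0 ± 2.15. Cidec at 2.72 ± 1.40 and Plin4 at 1.56 ± 0.855 came last. The SD ranges of G0s2, Plin2 and Pnpla2 overlapped, as did those of Hsd17b11, Plin5 and Cideb, and of Cidec and Plin4. Within every control library, though, Plin2 exceeded Pnpla2, Hsd17b11 and Plin5 each exceeded Cideb, and Cidec exceeded Plin4. The order of G0s2 against Plin2 and Pnpla2, and of Hsd17b11 against Plin5, changed between controls. In exposed livers Hsd17b11 was at 109 ± 16.6 CPM per kilobase, second to Hsd17b13 at 243 ± 30.9 and ahead of G0s2 at 85.5 ± 49.1, whose spread covered it.

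The control libraries differed from each other in a shared way. Control replicate 3 was the highest control for 9 of the 10 genes, all but Pnpla2, while it was the highest control for 33.9% of all genes tested. Control replicate 1 was the lowest control for 8 of the 10, against 36.6% of all genes, and the lowest for Plin4 and G0s2 was control replicate 2. Control replicate 3 was also the control with the lowest interferon-stimulated and macrophage levels, and the part of either in the droplet genes was not tested. With control replicate 3 left out, Hsd17b11 had a log2 fold change of 1.67. With control replicates 1 and 2 both left out, control replicate 3 was the only control, so the control group had no spread. The log2 fold change of Hsd17b11 was then 0.90, and the median of the 10 genes was -0.20.

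**Figure D4:**
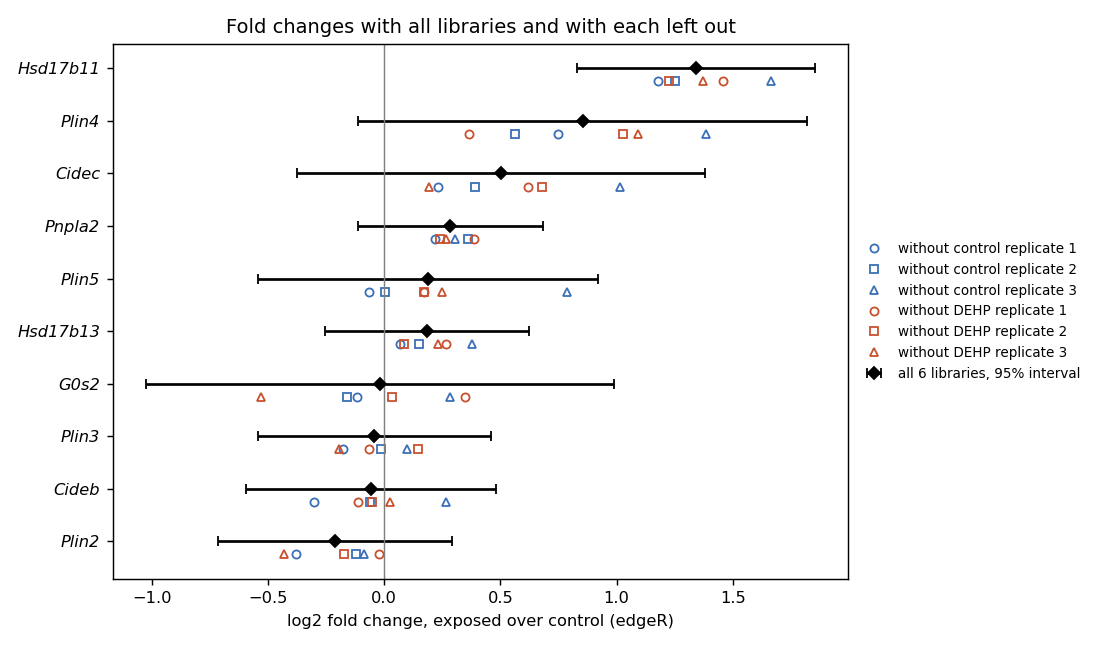
Log2 fold change of exposed over control livers for the 10 droplet genes (x axis; black diamonds with 95% intervals are the edgeR fit to all 6 libraries, open symbols are fits with 1 library left out). Hsd17b11 stays between 1.18 and 1.67, and leaving out control replicate 3 (blue triangles) gives the highest value for Hsd17b11, Plin4, Cidec, Plin5, Hsd17b13 and Cideb.

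Other genes of the droplet were read from lists, each beside the same counts over all genes tested: an unadjusted p under 0.05 in 6.11% (higher) and 6.97% (lower), 17.7% without overlap and 47.1% with a positive log2 fold change. Of 24 tested genes of droplet formation and growth, 0 passed in edgeR and 3 were higher at an unadjusted p of 0.05, with a median log2 fold change of 0.19 and 18 positive. The groups did not overlap for 8 of the 24 (17.7% of all genes), of which 4 were higher in exposed livers and 4 lower: Bscl2, which encodes seipin, Tmem159, Faf2 and Rab3gap2, at log2 fold changes of -0.40, -0.63, -0.25 and -0.38. These 4 did not pass an unadjusted p of 0.05 in edgeR and were named after their values were seen. DESeq2 called Fitm2 and Mogat1 (2.18% of all genes), and limma-voom 0 (0.0561%). Fitm2, which partitions triglyceride into droplets at the endoplasmic reticulum, had 29.9, 38.3 and 38.5 CPM in controls and 56.1, 68.3 and 77.7 CPM in exposed livers (log2 fold change 0.92 ± 0.20, SE, edgeR adjusted p = 0.129). Mogat1, a monoacylglycerol acyltransferase, was scarce, with 0.992, 0 and 0.709 CPM in controls and 3.75, 6.89 and 4.33 in exposed livers (3.10 ± 0.75, SE, edgeR adjusted p = 0.166). Acsl4, an acyl-CoA synthetase, had 0.79 ± 0.24 (SE, edgeR adjusted p = 0.215). Every exposed library lay above every control for these 3 genes. Dgat2, the most abundant per kilobase of the list, which makes triglyceride, had 0.13 ± 0.20 (SE, edgeR adjusted p = 0.823). Without control replicate 3, Fitm2 and Acsl1 passed in edgeR (3.10% of all genes).

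Of 11 tested lipases and regulators of lipolysis beside Pnpla2 and G0s2, 0 passed in edgeR, and at an unadjusted p of 0.05 there were 4 with higher and 1 with lower levels (6.11% and 6.97% of all genes). The median log2 fold change was 0.08. The groups did not overlap for 3 of the 11 (17.7% of all genes), 2 higher and 1 lower in exposed livers. DESeq2 called Ces1d (2.18% of all genes), and limma-voom 0 (0.0561%). Ces1d, a carboxylesterase of the endoplasmic reticulum that hydrolyses triglyceride, had 315, 426 and 543 CPM in controls and 872, 976 and 998 in exposed livers, with no overlap. Its log2 fold change was 1.15 ± 0.22 (SE, edgeR adjusted p = 0.120; 0.00188 without control replicate 3). Carboxylesterase genes share sequence, so its counts are uncertain. Pnpla7, a lysophospholipase of the Pnpla2 family, had 115, 109 and 123 CPM in controls and 78.9, 85.9 and 79.1 in exposed livers, also with no overlap and in the other direction (-0.50 ± 0.18, SE, edgeR adjusted p = 0.280). Pnpla8, a phospholipase, had 0.60 ± 0.23 (SE, edgeR adjusted p = 0.307), and Aadac, a lipase of the endoplasmic reticulum and the most abundant of the list, 0.08 ± 0.21 (SE, edgeR adjusted p = 0.912). Abhd5, the coactivator that G0s2 opposes at the lipase, had 17.4 ± 0.879 CPM in controls and 20.2 ± 3.69 in exposed livers (0.21 ± 0.22, SE, edgeR adjusted p = 0.728) and was chosen after its values were seen.

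Among 18 tested genes for other droplet-bound proteins, 0 passed in edgeR, 2 were higher at an unadjusted p of 0.05 (6.11% of all genes), and the median log2 fold change was 0.07. The groups did not overlap for 4 of the 18 (17.7% of all genes), all higher in exposed livers. DESeq2 called Cav1 (2.18% of all genes), and limma-voom 0 (0.0561%). Cav1, caveolin of membrane pits and droplets, had 1.28, 2.05 and 2.57 CPM in controls and 3.85, 8.72 and 6.37 in exposed livers (1.69 ± 0.44, SE, edgeR adjusted p = 0.170; 0.0490 without control replicate 3). Vps13a, a lipid transfer protein at contacts between organelles, had 0.87 ± 0.28 (SE, edgeR adjusted p = 0.234), also with no overlap. Vim, the intermediate filament vimentin, had -0.60 ± 0.30 (SE, edgeR adjusted p = 0.419), and Mettl7b, the most abundant of the list, -0.17 ± 0.19 (SE, edgeR adjusted p = 0.755). Vim is also expressed by stellate and other non-parenchymal cells. The summed level of 9 stellate markers was 366 to 550 CPM in controls and 241 to 298 in exposed livers, and its part in the Vim value was not tested.

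Of 33 tested PPARalpha targets outside the 10 genes, 30 had positive log2 fold changes (47.1% of all genes), and their median was 0.37. In edgeR 0 passed. At an unadjusted p of 0.05, 12 had higher and 1 had lower levels in exposed livers (6.11% and 6.97% of all genes). The groups did not overlap for 11 (17.7% of all genes), 10 higher and 1 lower, the hormone gene Fgf21. DESeq2 called 6, all higher (2.18% of all genes in either direction), and limma-voom 0 (0.0561%). With control replicate 3 dropped, edgeR called 8, all higher (3.10% of all genes in either direction). It called 0 when any other single library was dropped (0.0387% to 0.147% of all genes). The list median fell to 0.25 when control replicate 1 was dropped and rose to 0.61 when control replicate 3 was. Against control replicate 3 as the only control, the list median was 0.11, beside 0.025 over all genes tested. Ehhadh, the peroxisomal bifunctional enzyme of fatty acid oxidation, had 89.7, 111 and 192 CPM in controls and 305, 290 and 322 in exposed livers. Like Hsd17b11, it had control replicate 3 as the control closest to the exposed livers (1.22 ± 0.25, SE, edgeR adjusted p = 0.128). Aldh3a2, a fatty aldehyde dehydrogenase, had 186, 221 and 264 CPM against 429, 348 and 401 (0.81 ± 0.20, SE, edgeR adjusted p = 0.162). Vnn1, vanin, had 32.0, 35.9 and 24.1 CPM against 50.5, 65.6 and 57.9, with control replicate 3 the lowest library (0.92 ± 0.21, SE, edgeR adjusted p = 0.138). Fabp1, the fatty acid binding protein of liver and the most abundant of the list, had -0.09 ± 0.28 (SE, edgeR adjusted p = 0.921).

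**Figure D5:**
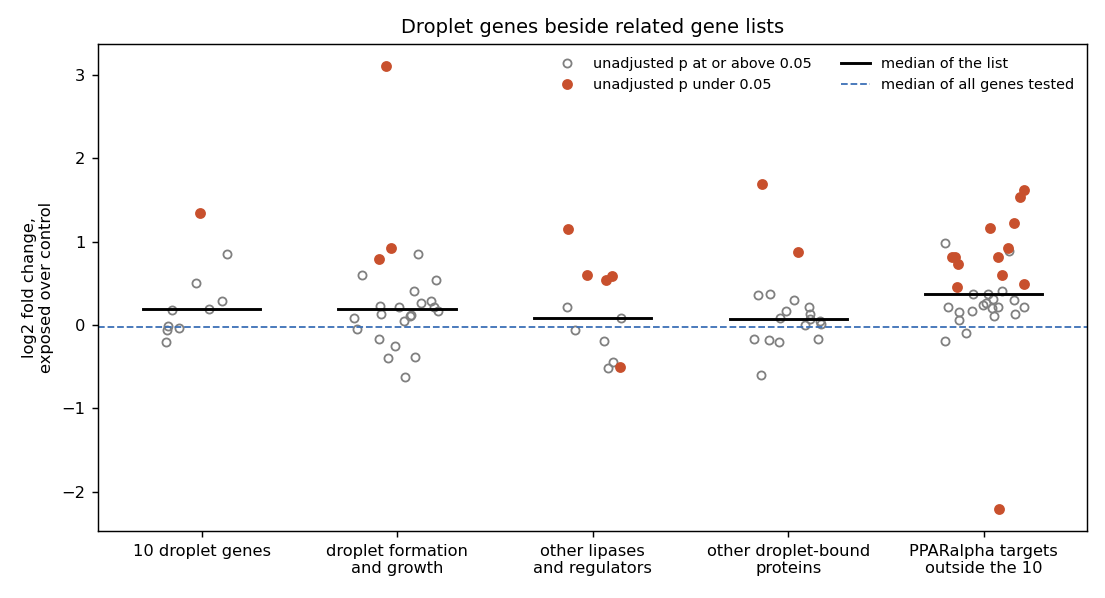
Log2 fold change of exposed over control livers (y axis) for the 10 droplet genes and the tested genes of 4 related lists (x axis; filled points have an unadjusted edgeR p under 0.05, black lines are list medians, the dashed line is the median of all genes tested). The medians are 0.19 for the 10 genes, 0.19, 0.08 and 0.07 for the other droplet lists and 0.37 for PPARalpha targets, beside -0.03 for all genes.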

How the data were processed

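The deposited table holds whole-number counts of reads per gene, 1 column per library, with no normalization. The submitters' processing notes name GRCm38.p6, and the table's gene identifiers are of the C57BL/6NJ strain annotation; the aligner, counting program and strand setting were not given in the sources used here. Of 42380 rows, 1284 without a gene name (2.73% to 4.28% of counts) were left out. Libraries were grouped by their titles; the columns marked High were taken as the exposed group, the one other group. The design text of the series is about another experiment (a human cell line, bisulfite reads), so what the libraries are rests on the sample labels, the mouse gene identifiers and the liver markers.

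Counts were tested in edgeR 4.0.16 (R 4.3.3): filterByExpr with a minimum count of 10, TMM scaling, robust quasi-likelihood test, two-sided, Benjamini-Hochberg adjustment over 12468 genes, threshold 0.05. Standard errors come from the F statistic and 95% intervals from its degrees of freedom. CPM divide by the TMM-scaled sum over genes that passed the filter; levels per kilobase divide by the table's gene length. Ratios add 0.5 to each count. The script was tested on simulated counts with known changes. DESeq2 1.42.0, limma-voom (limma 3.58.1, robust), RLE scaling, no low-count filter (a total above 0), a mean of at least 1 CPM, a replicate block, a quasi-likelihood fit without the robust option and each library left out were alternatives; leaving out control replicates 1 and 2 together was added after the data were seen. All 10 genes are named, and from each wider list the genes past the threshold, the 3 with the smallest p and the most abundant per kilobase. The 10 genes and the lists were chosen with earlier results of these data known. In the wider lists, no row was found under the symbols Ldaf1, Gpat3, Spart, Hspa8, Cyp4a31, Acaa1a, Acot2 and Peci. Among the markers, the macrophage gene Lyz2 and the interferon-stimulated genes Ifit3 and Oas1a had no row.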

Additional observations from a re-analysis of the deposited data

How the results depend on the processing

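Hsd17b11, Plin2, Plin4 and Pnpla2 kept the sign of their log2 fold change in all 14 alternatives. Hsd17b11 passed with no low-count filter (1.37), DESeq2 (1.36) and limma-voom (1.38), and ran from 1.18 to 1.67 with 1 library left out. Signs turned for Cideb with limma-voom (0.015) and the replicate block (0.0040), for G0s2 with no filter (0.0094), and without control replicates 1 and 2 together for Plin5 (-0.53), Cidec (-0.15) and Hsd17b13 (-0.094). With 1 library left out, values ran from -0.20 to 0.15 for Plin3, -0.064 to 0.78 for Plin5, -0.30 to 0.27 for Cideb and -0.53 to 0.35 for G0s2. The Plin3 share among perilipins turned from -0.10 to 0.16 percentage points without length scaling and ran from -0.90 to 0.94 with 1 library left out. Over all genes the number of calls was 9, against 496 with no filter and 272 with DESeq2. With 1 library left out it ran from 5 (without control replicate 1 or DEHP replicate 3) to 400 (without control replicate 3). It was 19 without DEHP replicate 1. Of the 10 droplet genes, 1 passed with no filter (2.41% of all genes), DESeq2 (2.18%) or limma-voom (0.0561%). With 1 library left out, 0 to 1 of the 10 passed (0.0387% to 3.10% of all genes). No filter (2.41% of all genes) called 4 genes of droplet formation, 1 lipolysis gene and 1 other droplet gene. It also called 9 PPARalpha targets, 8 higher and 1 lower. For the same lists in order, DESeq2 (2.18% of all genes) called 2, 1, 1 and 6. Leaving out 1 library (0.0387% to 3.10% of all genes) gave 0 to 2, 0 to 1, 0 to 1 and 0 to 8. The cause was not tested.

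Replicate numbers share no stated animal or day, and same-numbered libraries correlated at -0.02, 0.06 and -0.03 in their deviations from group means, so the numbers were not taken as pairs. With the replicate block 6 genes passed in place of 9, and Hsd17b11 had an adjusted edgeR p of 0.144 (log2 fold change 1.38). Counts of 40 to 165 for Plin4 and 42 to 116 for Cidec limit the precision of both.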
